A study of Mus musculus with 6 samples.

Results

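The Hox genes are described here across RNA libraries of mouse aortas. All rows named Hoxa, Hoxb, Hoxc or Hoxd plus a number were taken, 37 of the 18749 gene rows, and they make up 37 of the 39 Hox genes of the mouse annotation. Hoxd1 and Hoxd12 had no row and were not analysed here. The clusters contributed 11 Hoxa, 10 Hoxb, 9 Hoxc and 7 Hoxd rows. The 6 libraries came from Apoe-/- mice, which lack apolipoprotein E, and every mouse had received an angiotensin II infusion lasting 28 days, a treatment under which such mice can form aortic aneurysms. Recipients of Apoe-/- marrow (3 libraries, called controls) were compared with recipients of Apoe-/-Sept2C111A marrow (3 libraries), whose septin-2 carries, by its name, a cysteine-to-alanine exchange. Only cells descended from the transplanted marrow carry the altered septin-2, while the vessel wall and any surviving resident blood-derived cells keep the recipient's genotype. The sources used here name neither age nor sex, nor the stretch of aorta that was dissected. Nothing in the labels says how animals were pooled, so p-values measure the spread between these samples.

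Hox genes encode homeodomain transcription factors that give cells their position along the head-to-tail axis. They lie in 4 clusters, and genes with the same number in different clusters are paralogues that descend from one ancestral gene. Within a cluster, low-numbered genes are switched on first and furthest towards the head, and high-numbered genes later and further towards the tail. Adult smooth muscle cells and fibroblasts keep much of this pattern, so the arch, the thoracic aorta and the abdominal aorta differ in which Hox genes they transcribe. The question put to the data was whether the libraries have alike Hox profiles, and whether the marrow groups differ in them. Genes are sorted below into anterior (paralogues 1 to 3), central (4 to 8) and posterior (9 to 13).

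Library totals ran from 17082719 to 20494928 expected counts, and Hox rows received between 2618.23 counts (control 1) and 6834.58 counts (control 3). Levels are CPM, the counts of a gene scaled by all counts of its library, unless CPM per kilobase of exon is named. Of the 37 rows, 28 had reads in every library, 23 had at least 10 counts in every library, and Hoxd11 had none in any. Smooth muscle markers were present throughout, and their 7 genes summed to 5698 CPM in control 3 and to between 16314 and 22522 CPM in the other 5 libraries, with none at 0. Neutrophil markers summed to 2814 CPM in control 1, to 88.03 and 322 CPM in controls 2 and 3, and to between 14.8 and 28.8 CPM in the Sept2C111A libraries. In whole tissue, fewer cells of a type and less RNA per cell cannot be told apart.

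Anterior Hox genes had nearly level totals across the 6 libraries, whereas central and posterior ones differed by several fold between single mice. The 7 anterior rows summed to 76.8, 102 and 88.3 CPM in controls 1, 2 and 3 and to 102, 101 and 105 CPM in Sept2C111A libraries 1, 2 and 3. The 15 central rows summed to 60.4, 95.4 and 214 CPM in the controls and to 214, 94.6 and 176 CPM in the Sept2C111A libraries. The 15 posterior rows summed to 4.55, 11.8 and 31.4 CPM and to 46.04, 17.6 and 15.2 CPM in the same order. Control 1 was thus lowest for each class, and control 3 and Sept2C111A library 1 held the 2 highest posterior sums. The groups overlapped in every class. Group means were 89.1 ± 12.8 and 103 ± 2.06 CPM for the anterior class, 123 ± 80.4 and 162 ± 60.9 CPM for the central class, and 15.9 ± 13.9 and 26.3 ± 17.2 CPM for the posterior class (controls, then Sept2C111A; SD, n = 3). Without control 3 the control means were 77.9 CPM for the central and 8.17 CPM for the posterior class, and without Sept2C111A library 1 its group's posterior mean was 16.4 CPM.

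The spread between libraries was wider for high than for low paralogue numbers, though not at every step. Summed over clusters, the highest library exceeded the lowest 1.42-fold for paralogue 2 and 1.37-fold for paralogue 3. It was 2.16-fold for paralogue 4 and 3.20-fold for paralogue 5, and lay between 5.65-fold and 7.39-fold for paralogues 6 to 9. For paralogue 10 it was 18.6-fold (0.812 CPM in control 1 and 15.1 CPM in Sept2C111A library 1), with a 95% exact interval of 11.1 to 33.7 that covers counting error only. Paralogue 11 had 1 count in control 1 and 64 in Sept2C111A library 1, a 63.3-fold ratio with a counting interval of 10.96 to 2539. Paralogues 12 and 13 together had too few reads to compare, with 4 counts of paralogue 13 in Sept2C111A library 1 as the highest value.

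**Figure D1:**
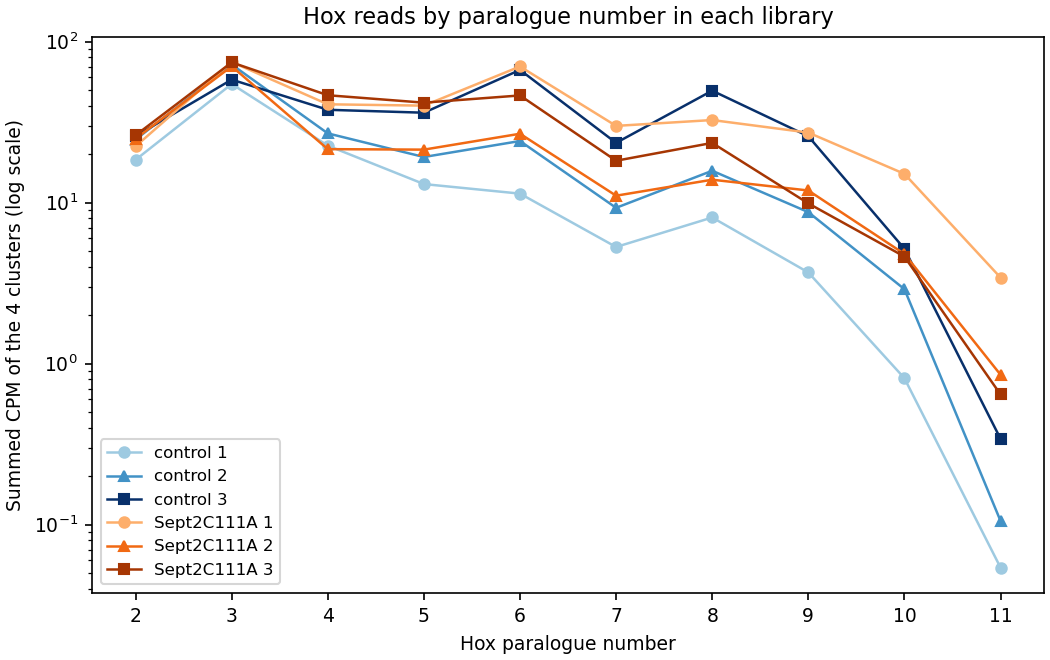
Summed CPM of all clusters (log axis) against Hox paralogue number, with 1 line per library, controls in blue and Sept2C111A in orange. The axis starts at paralogue 2. The lines lie close together for paralogues 2 and 3 and spread apart up to paralogue 11, where control 1 stands at 0.054 CPM and Sept2C111A library 1 at 3.43 CPM.

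As a share of all Hox reads, which does not depend on how libraries are scaled, posterior genes took 3.21%, 5.63% and 9.41% in controls 1, 2 and 3. They took 12.7%, 8.23% and 5.11% in Sept2C111A libraries 1, 2 and 3. The 95% Wilson interval of the share was 2.60% to 3.96% in control 1 and 11.96% to 13.6% in Sept2C111A library 1. Reads are not independent molecules, so such intervals cover counting error only. The groups overlapped, with means of 6.08% ± 3.12 and 8.69% ± 3.83 (SD, n = 3), a difference smaller than the spread within either group. Anterior genes took 54.2%, 48.9% and 26.5% in the controls and 28.2%, 47.4% and 35.4% in the Sept2C111A libraries. Controls 1 and 2 and Sept2C111A library 2 were therefore at 47.4% anterior or more, and the other 3 libraries were at 35.4% or less. Sept2C111A library 3 combined a high central share of 59.5% with a low posterior share, unlike Sept2C111A library 1 with 59.1% and 12.7%.

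**Figure D2:**
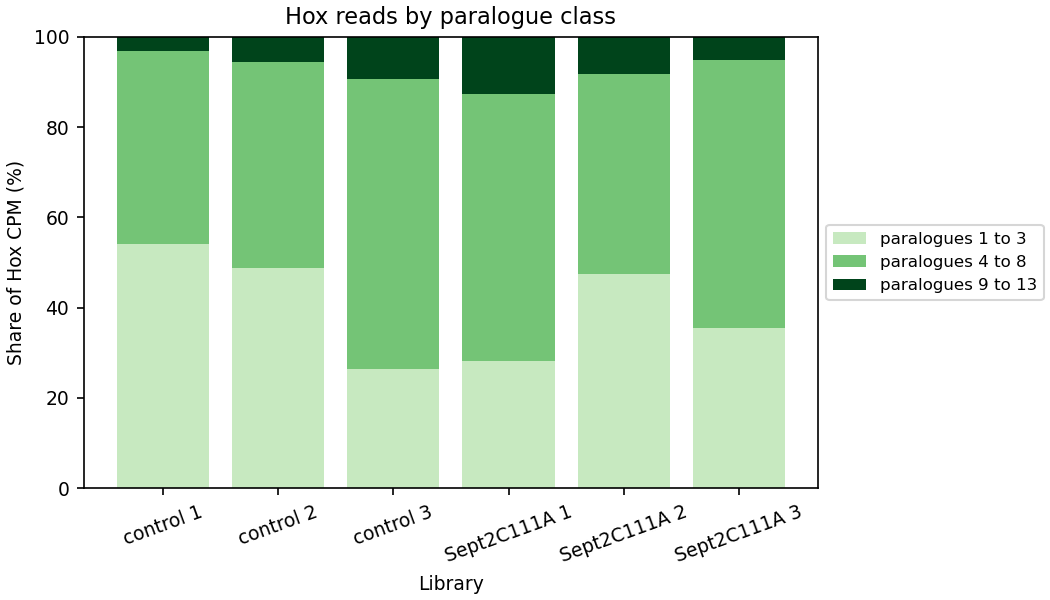
Share of Hox CPM (vertical axis, percent) that fell to paralogues 1 to 3, 4 to 8 and 9 to 13 in each of the 6 libraries (horizontal axis). The anterior part ranges from 26.5% in control 3 to 54.2% in control 1, and both marrow groups hold libraries of either kind.

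Start regions are shown for 3 genes that stand for the patterns of these libraries: Hoxa2 is level across them, Hoxb8 is uneven, and Hoxa11 is the single row whose groups do not overlap. Each is the 250 bases before the RefSeq start (GRCm38.p6, the build also called mm10), written 5′ to 3′ on the gene's strand. Capitals mark matches to TTTATG (a Cdx-type motif), TGATNNAT (bound by Pbx with Hox proteins) or TGACAG (bound by Meis proteins), searched on both strands. Hoxa2 lies at chr6:52164832-52165081 on the minus strand, Hoxb8 at chr11:96281655-96281904 on the plus strand and Hoxa11 at chr6:52245811-52246060 on the minus strand.
Hoxa2 upstream window: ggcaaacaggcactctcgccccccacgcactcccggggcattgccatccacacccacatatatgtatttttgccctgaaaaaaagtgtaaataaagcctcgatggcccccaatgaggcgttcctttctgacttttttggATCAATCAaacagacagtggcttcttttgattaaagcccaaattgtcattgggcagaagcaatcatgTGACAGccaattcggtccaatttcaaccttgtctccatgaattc
Hoxb8 upstream window: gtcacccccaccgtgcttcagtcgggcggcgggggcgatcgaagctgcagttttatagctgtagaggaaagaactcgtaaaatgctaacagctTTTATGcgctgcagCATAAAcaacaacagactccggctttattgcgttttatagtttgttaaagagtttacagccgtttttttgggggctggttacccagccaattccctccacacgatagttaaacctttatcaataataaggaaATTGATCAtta
Hoxa11 upstream window: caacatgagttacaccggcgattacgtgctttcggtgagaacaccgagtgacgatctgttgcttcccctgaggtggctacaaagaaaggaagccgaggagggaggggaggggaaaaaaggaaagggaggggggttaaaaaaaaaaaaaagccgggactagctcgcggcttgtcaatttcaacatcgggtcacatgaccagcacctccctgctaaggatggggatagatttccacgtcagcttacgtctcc
Hoxa2 holds 1 Pbx-Hox and 1 Meis match, Hoxb8 holds 2 Cdx matches and 1 Pbx-Hox match, and the Hoxa11 window holds none of these letters. Of 32851 windows of this length in the table, 10.8% held the Cdx motif, 7.68% the Pbx-Hox motif and 15.9% the Meis motif. Among 24 Hox windows the counts were 5, 4 and 2. A window was found for 20 of the 37 rows. A match is a description of letters and says nothing of binding in these aortas.

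Hoxa3 had the highest mean CPM of the anterior class and of all Hox rows. This gene (chromosome 6, 52169062 to 52213336, mm10) patterns the pharyngeal arches, from which the arch arteries arise. It stood at 32.9, 40.6 and 21.8 CPM in controls 1, 2 and 3 and at 38.7, 41.3 and 40.04 CPM in the Sept2C111A libraries, and control 3 was the single library well below the rest. Hoxb3 (chromosome 11, 96323326 to 96347930), its paralogue, was at 21.0, 30.6 and 34.0 CPM in controls and 33.9, 28.6 and 33.3 CPM in Sept2C111A libraries. Control 1 was lowest for Hoxb3, as it was for Hoxa2 and Hoxb2. Those last 2 genes, active in the hindbrain of the embryo, differed by 1.62-fold or less between their highest and lowest library. An antisense gene, Hoxb3os, overlaps 52.9% of the Hoxb3 exon bases. Hoxb1 had 2 counts in all and was near the limit of detection. Hoxd3 went against its class, with 0.70, 0.90 and 2.34 CPM in controls, 2.20, 0.43 and 1.05 CPM in Sept2C111A libraries and a 5.49-fold range. Of its exon bases, 62.8% are shared with annotated neighbours, Hoxd4 among them, so that its reads may be divided.

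The change from level to uneven genes fell at different paralogues in different clusters. In the Hoxa cluster, Hoxa4 still differed by 1.64-fold, with 6.60, 6.12 and 4.83 CPM in controls and 4.02, 5.02 and 6.56 CPM in Sept2C111A libraries. It was highest in control 1 and lowest in Sept2C111A library 1, whereas 23 of the 27 tested Hox genes were lowest in control 1. Hoxa5 (chromosome 6, 52201754 to 52204587), a gene of thoracic identity that also acts in lung and endothelium, ranged 2.52-fold. Its levels were 9.15, 11.9 and 22.2 CPM in controls and 23.1, 13.7 and 22.8 CPM in Sept2C111A libraries. Hoxa6 and Hoxa7 then ranged 6.40-fold and 6.79-fold. In the Hoxb cluster, Hoxb4 (chromosome 11, 96318267 to 96321638) was at 11.4, 14.1 and 12.96 CPM in controls and 17.2, 9.22 and 28.1 CPM in Sept2C111A libraries. Its highest and lowest libraries were both Sept2C111A recipients, 3.05-fold apart. In the Hoxc cluster, even the lowest-numbered gene, Hoxc4, ranged 6.09-fold, and Hoxd4 ranged 4.05-fold.

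Among the other central genes, Hoxc6 (chromosome 15, 102998257 to 103011881), which marks thoracic levels, had the highest mean CPM. It was at 5.15, 11.1 and 36.5 CPM in controls and at 32.4, 11.05 and 16.1 CPM in Sept2C111A libraries. Hoxc8 (chromosome 15, 102990607 to 102994111), active at lower thoracic levels, was at 4.08, 6.17 and 20.9 CPM and at 13.8, 6.52 and 7.52 CPM. For both genes control 3 was highest, Sept2C111A library 1 next and control 1 lowest. Hoxd4 (chromosome 2, 74711929 to 74729160) was at 2.33, 2.96 and 6.44 CPM in controls and at 9.42, 2.46 and 5.56 CPM in Sept2C111A libraries. Hoxd8 (chromosome 2, 74704615 to 74707933) was at 1.84, 2.22 and 9.03 CPM and at 6.37, 2.19 and 3.98 CPM. Controls 1 and 2 and Sept2C111A library 2 were the 3 lowest for Hoxd4 and for Hoxd8. In 13 of the 15 central genes the 3 highest libraries were control 3 and Sept2C111A libraries 1 and 3, which was so for 8.54% of all 14466 genes tested. This order was noticed in the data and then counted, so it is a description.

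The middle of the Hoxb cluster, whose genes pattern the neck and trunk, showed the same order in most genes. Hoxb5 was at 3.19, 5.49 and 9.12 CPM in controls and at 13.4, 6.19 and 14.9 CPM in Sept2C111A libraries. Hoxb6 was at 3.79, 9.87 and 18.5 CPM and at 22.2, 9.93 and 22.8 CPM, so both genes were highest in Sept2C111A library 3. Hoxb8 was at 2.17, 7.39 and 19.7 CPM and at 12.5, 5.18 and 12 CPM, and Hoxb7, like Hoxb8, was highest in control 3. The ranges of these 4 genes lay between 4.66-fold and 9.08-fold, and Hoxc5 ranged 7.003-fold. Hoxa6 and Hoxa7 were highest in Sept2C111A library 1, at 15.6 and 19.1 CPM, and lowest in control 1, at 2.44 and 2.82 CPM.

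Posterior genes were led by Hoxb9 (chromosome 11, 96271457 to 96276595), a gene of the rib-bearing trunk, at 1.47, 5.41 and 14.3 CPM in controls and at 10.2, 5.98 and 4.92 CPM in Sept2C111A libraries. Its controls alone spanned 9.74-fold. Hoxa9 was at 1.52, 1.85 and 5.51 CPM and at 10.98, 3.84 and 3.22 CPM, and Hoxa10, which with its paralogues specifies the lumbar region, at 0.595, 1.48 and 3.22 CPM and at 10.6, 2.88 and 3.40 CPM. Hoxa9 and Hoxa10 were thus highest in Sept2C111A library 1, whereas Hoxb9 was highest in control 3. Hoxc9, Hoxc10 and Hoxd9 ranged 10.2-fold, 19.04-fold and 8.24-fold, with 4 to 7 counts in control 1. All 6 posterior genes that could be tested were lowest in control 1. The remaining 9 posterior rows were below the count filter. Hoxc11 had 0 counts in every control, which allows up to 0.162 CPM (3 counts), and 7, 0 and 2 counts in Sept2C111A libraries 1, 2 and 3. Hoxd10 had at most 7 counts in a library, and Hoxa13, Hoxb13, Hoxc12, Hoxc13 and Hoxd13 at most 1.

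**Figure D3:**
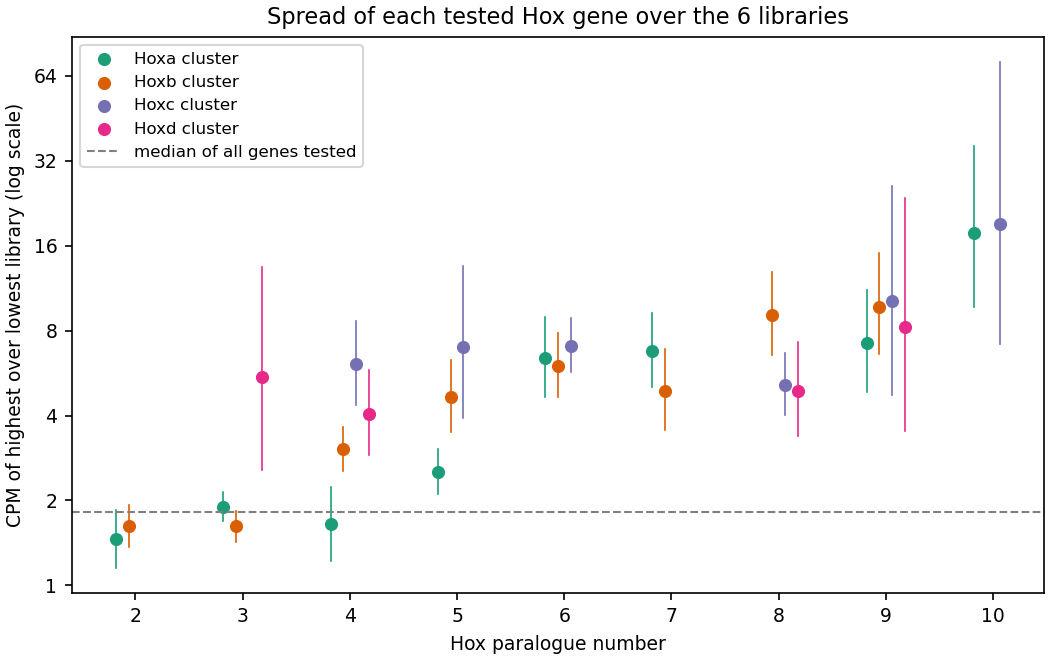
CPM of the highest library over that of the lowest (log axis) for the tested Hox genes from paralogue 2 on, coloured by cluster, with 95% exact counting intervals as vertical lines. The dashed line is the median of all genes tested, 1.82-fold; anterior genes other than Hoxd3 lie near it and the 6 posterior genes lie between 7.24-fold and 19.04-fold.

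Over the 27 tested Hox genes, the fold between highest and lowest library rose with paralogue number (Pearson r = 0.86, Spearman rho = 0.86 across 27 genes, which share libraries and clusters and are not independent). A range of at least 4-fold was found for 16.2% of the genes in the whole table that could be rated. The Hox count was 19 of 27, made up of 1 of 6 anterior, 12 of 15 central and 6 of 6 posterior genes. Median ranges were 1.62-fold, 5.12-fold and 9.96-fold for the 3 classes, against 1.82-fold for all genes. The background was not matched for level, and low counts alone widen such ranges. Control 1 was the lowest library for 23 of the 27 Hox genes and for 24.5% of all genes tested.

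Compared per kilobase of exon, the order of levels did not follow paralogue number. Central genes stood highest, and the anterior Hoxd3 was at only 0.303 mean CPM per kilobase. Hoxa5, Hoxa6 and Hoxc6 were at 9.12, 8.81 and 7.77 mean CPM per kilobase over the 6 libraries, followed by Hoxb6 at 7.38, Hoxb3 at 7.11, Hoxb4 at 6.04 and Hoxa3 at 5.97. Neighbours in this order differ by less than the spread between libraries. The highest posterior gene was Hoxb9 at 2.74 CPM per kilobase, beside 2.65 for the central Hoxc4, and Hoxa10 and Hoxa9 were at 1.13 and 0.804. Exon lengths were the union of annotated exons, so genes with rare long transcripts such as Hoxa3 come out low.

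The Sept2C111A and control groups did not differ in any Hox gene after adjustment. In edgeR's quasi-likelihood test with Benjamini-Hochberg adjustment over 14466 genes, 0 of 27 tested Hox genes were higher and 0 lower, against 0% of all genes. At an unadjusted p under 0.05 edgeR also gave 0 of the 27, where the share of all genes was 15.0%, and DESeq2 called 0 at adjusted p under 0.05, where its share was 3.87%. At an unadjusted p under 0.05 DESeq2 had 2 of 36 Hox rows, Hoxa10 and Hoxa11, where its share of all genes was 15.3%. Among the 27 tested genes the smallest edgeR p was 0.0726 (adjusted p = 0.359), for Hoxa10 whose log2 change was 1.63 (SE 0.76). Hoxb5 followed with 0.90 (SE 0.47; adjusted p = 0.379 in edgeR) and Hoxa9 with 0.98 (SE 0.69; adjusted p = 0.487). The median over the 27 genes was 0.26, against 0.00 over all genes, and 20 of the 27 log2 fold changes were above 0, against 50.1% of all genes. In none of the 27 did the 3 libraries of one group lie wholly above those of the other, which was so for 22.6% of all genes tested.

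By level, the named genes had small group differences beside wide errors. Log2 fold changes were 0.30 (SE 0.23) for Hoxa3, 0.12 (SE 0.19) for Hoxb3, 0.42 (SE 0.37) for Hoxa5 and 0.45 (SE 0.36) for Hoxb4. They were 0.13 (SE 0.74) for Hoxc6, -0.20 (SE 0.65) for Hoxc8, 0.52 (SE 0.58) for Hoxd4, -0.11 (SE 0.71) for Hoxd8 and -0.03 (SE 0.76) for Hoxb9. For Hoxb3 and the last 5 genes the SE exceeded the difference itself. For Hoxa3, Hoxa5 and Hoxb4 it was not far below the difference. Group differences of these sizes were not detectable with 3 libraries a group. Control 3 moved the size of the median most: without it the median rose to 1.09. In that fit 10 of 28 tested Hox genes had an unadjusted edgeR p under 0.05, against 11.2% of all genes, 0 were called, and the smallest Hox adjusted p was 0.433. Without control 1 the direction was lost, with a median of -0.036 and 14 of 28 genes higher, and limma-voom with quality weights gave 0.74.

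**Figure D4:**
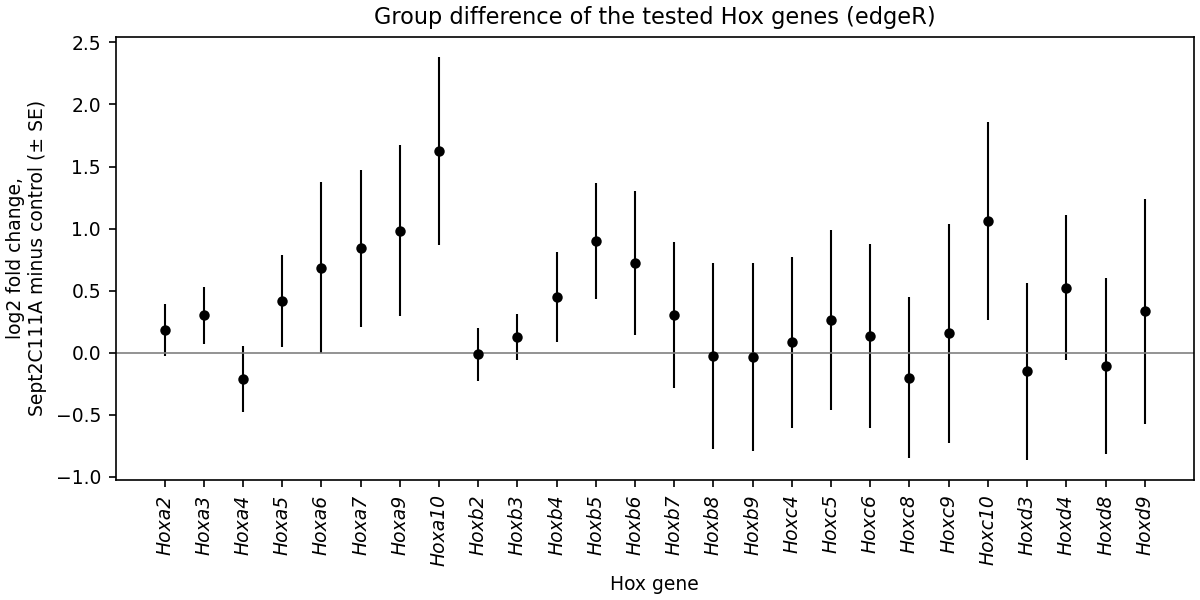
Log2 fold change of the tested Hox genes from paralogue 2 on (Sept2C111A minus control, edgeR), with SE as vertical lines, ordered by cluster and paralogue number. Error bars of the central and posterior genes are wide, and Hoxa10 stands highest at 1.63.

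Summed by cluster, Hoxa reads were higher in each Sept2C111A library than in any control. The sums were 66.6, 85.3 and 92.3 CPM in controls and 139, 94.2 and 108 CPM in Sept2C111A libraries, so the highest control and the lowest Sept2C111A library differed by little. They were still apart on TMM-scaled library sizes, at 93.5 and 97.4 CPM. The gap rested on Hoxa3, at 21.8 CPM in control 3 and 38.7, 41.3 and 40.04 CPM in the Sept2C111A libraries. With Hoxa3 left aside, control 3 lay above Sept2C111A libraries 2 and 3, so the groups overlapped. The other clusters overlapped. For scale, the groups lay apart in either direction for 22.6% of all single genes tested and for 0 of the 27 tested Hox genes. Hoxb sums were 96.4 ± 41.3 and 120.3 ± 29.7 CPM, Hoxc sums 39.8 ± 36.6 and 43.8 ± 21.4 CPM, and Hoxd sums 10.7 ± 8.26 and 12.8 ± 7.79 CPM (controls, then Sept2C111A; SD, n = 3). Hoxc was the most uneven cluster, from 12.8 CPM in control 1 to 81.5 CPM in control 3. Without control 3 the control mean fell to 18.95 CPM for Hoxc and to 5.95 CPM for Hoxd.

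Hoxa11 (chromosome 6, 52242106 to 52245810), a gene of the sacral trunk, limb and urogenital tract, was the single Hox row of 36 with reads whose groups did not overlap. Sept2C111A libraries lay wholly above controls for 9.65% of all rows with reads. It had 1, 2 and 7 counts in controls (0.054, 0.106 and 0.342 CPM) and 57, 16 and 9 counts in Sept2C111A libraries (3.05, 0.854 and 0.527 CPM). Sept2C111A library 1 alone held 57 of the 82 counts of its group. It was below edgeR's count filter. Without that filter edgeR gave a log2 difference of 3.05 (SE 0.95) with an adjusted p of 0.368, and DESeq2 gave 3.09 with an adjusted p of 0.0718. Over 7 settings the adjusted p ran from 0.0718 to 0.925. An antisense gene, Hoxa11os, overlaps its exons, and reads of the pair cannot be told apart without a stated strand setting.

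Other regional factors were examined from a list of 47, with 24 grouped under arch, outflow tract and neural crest and 23 under descending aorta or trunk mesoderm. These groupings are broad, and their genes were not tested as marks of aortic segments. Of 35 tested, 0 were called by edgeR in either direction; at an unadjusted p under 0.05, 6 were higher and 1 lower, against 6.17% and 8.83% of all genes. DESeq2 called 1 higher and 0 lower, against 0.985% and 2.89%. The 23 genes of the descending aorta or trunk mesoderm summed to 199, 241 and 204 CPM in controls and to 343, 372 and 311 CPM in Sept2C111A libraries, and the groups did not overlap. The median log2 fold change of the 16 tested was 0.64, and in 9 of the 23 the groups did not overlap, against 19.4% of all rows with reads. The 24 arch, outflow tract and neural crest genes summed to 252, 306.9 and 239 CPM in controls and to 306.5, 346 and 386 CPM in Sept2C111A libraries. Only control 2 and Sept2C111A library 1 overlapped, and by little. The median log2 fold change was 0.19 over the 19 tested. Genes of high level dominate such sums. The 3 of smallest p were Foxc1, a forkhead factor of arch artery development, with 46.5 ± 9.60 and 76.7 ± 5.08 CPM, Nr2f2, a nuclear receptor of veins and atria, with 63.0 ± 12.8 and 107 ± 18.3 CPM, and Wt1, a factor of mesothelium and kidney, with 1.46 ± 1.32 and 0.240 ± 0.070 CPM. Each had an edgeR adjusted p of 0.316. The DESeq2 call is Pax1, a factor of the sclerotome. It is named because it was the single call, with 5.74, 6.19 and 3.05 CPM in controls and 15.1, 7.22 and 26.1 CPM in Sept2C111A libraries.

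Some arch and neural crest genes had a library order nearly the reverse of the central Hox genes, and these were chosen after their values were seen. Tbx20, a T-box factor of the outflow tract, was at 15.9, 16.5 and 0.891 CPM in controls and at 3.41, 18.95 and 12.2 CPM in Sept2C111A libraries. Hand2, a factor of neural crest and outflow tract, was at 16.7, 11.3 and 2.54 CPM and at 1.87, 16.97 and 3.92 CPM. Tfap2b, which acts in neural crest smooth muscle of the arterial duct, was at 4.66, 2.36 and 0 CPM and at 0.323, 1.19 and 2.46 CPM. All 3 were low in control 3 and Sept2C111A library 1, the libraries richest in posterior Hox reads. Their groups overlapped, and their edgeR adjusted p values were 0.989, 0.842 and 0.754.

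Markers of other tissues also differed between libraries. Whether their reads came from tissue beside the aorta or from its wall was not tested. Cardiac muscle markers (6 genes) summed to 1493 CPM in Sept2C111A library 3, to 203 CPM in control 1 and to between 10.2 and 31.7 CPM elsewhere. Single genes of these tissues were picked after their values were seen. Myh6, a cardiac myosin, was at 901 CPM in Sept2C111A library 3 and 26.4 CPM in control 1, while Nppa, an atrial hormone, was at 2.63 and 121 CPM. Myl2, a ventricular myosin light chain, stayed at or below 0.868 CPM in every library. Brown fat markers (5 genes) summed to 435, 309 and 10.5 CPM in controls and to 804, 290 and 1686 CPM in Sept2C111A libraries, with Elovl3 at 0 in control 3. Ucp1, the brown fat uncoupling protein, was at 290, 170 and 2.15 CPM in controls and 551, 157 and 1220 CPM in Sept2C111A libraries. Control 3, with the least smooth muscle and brown fat signal, had the most cartilage marker signal at 1046 CPM over 4 genes, against 142 to 329 CPM in the other 5 libraries. The part of these tissues in the Hox differences was not tested.

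**Figure D5:**
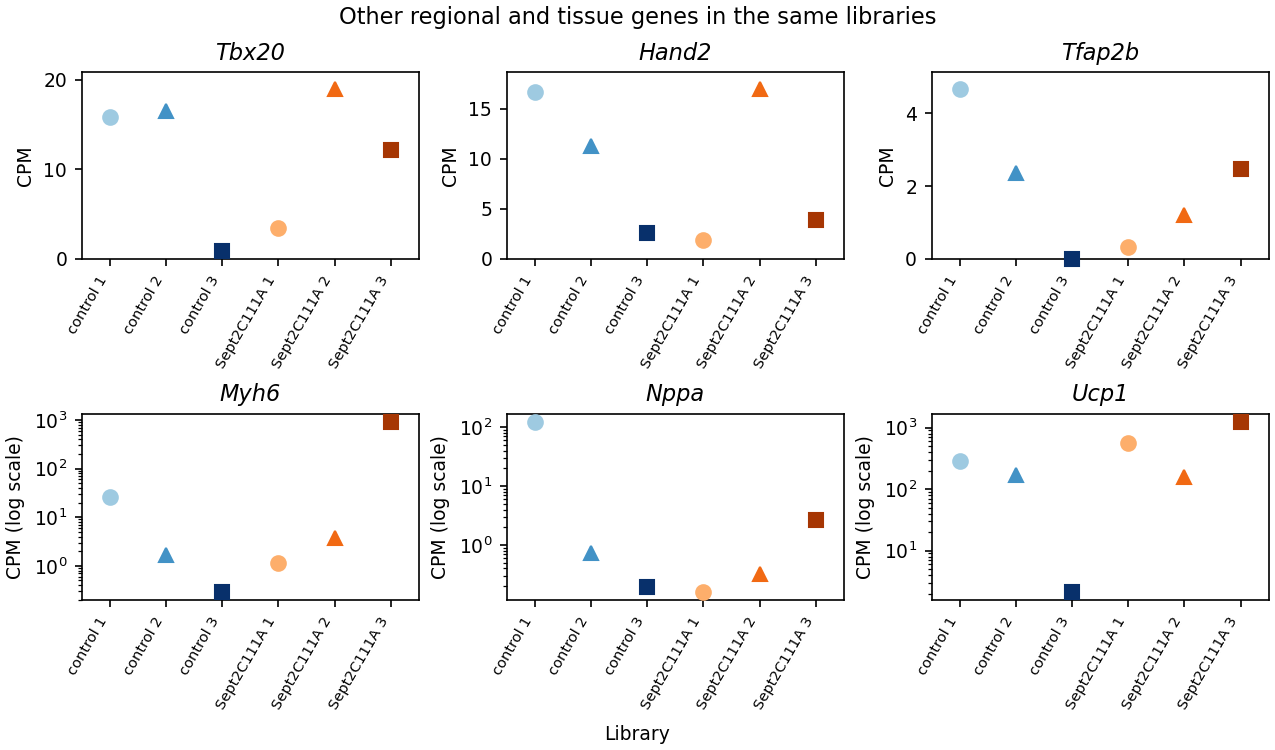
CPM in each of the 6 libraries for 3 arch or neural crest factors (Tbx20, Hand2, Tfap2b; linear axes) and for Myh6, Nppa and Ucp1 (log axes), controls in blue and Sept2C111A in orange. Tbx20, Hand2 and Tfap2b are low in control 3 and Sept2C111A library 1, and Myh6 reaches 901 CPM in Sept2C111A library 3.

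Fibroblast markers, which cover another cell type that keeps Hox expression, summed to 3890, 5260 and 4522 CPM in controls and to 7453, 6712 and 8893 CPM in Sept2C111A libraries. The groups did not overlap in these sums, nor in 6 of the 8 single markers, against 22.6% of all genes tested. None of the 8 markers was at 0 in any library. Log2 fold changes were above 0 for 7 of 8, against 50.1% of all genes. edgeR called 0 of them and DESeq2 called 4 higher, namely Cd34, Clec3b, Dpt and Dcn, against 0.985% of all genes. Cd34, a surface marker of adventitial cells, was at 223 ± 43.1 and 401 ± 28.3 CPM. Lum and Col15a1, both of the extracellular matrix, overlapped between groups. Lum was at 393, 660 and 1043 CPM in controls and at 877, 778 and 646 CPM in Sept2C111A libraries, with control 3 highest, Sept2C111A library 1 next and control 1 lowest, as for Hoxc6. Col15a1 was at 742 ± 273 and 641 ± 275 CPM. The part of fibroblast content in the Hox values was not tested.

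Over the whole marker list, 86 of 87 genes had a row and 71 were tested. edgeR called 0 in either direction, and 6 were higher and 8 lower at an unadjusted p under 0.05, against 6.17% and 8.83% of all genes. DESeq2 called 4 higher and 6 lower, against 0.985% and 2.89% of all genes. The 5 neutrophil markers were all among those 6. S100a8, an alarmin of neutrophils, was at 631, 12.8 and 104 CPM in controls and at 3.11, 0.961 and 1.52 CPM in Sept2C111A libraries, and S100a9, its partner, at 613, 15.9 and 74.4 CPM and at 2.998, 1.60 and 2.46 CPM. Summed levels over the 6 libraries ran from 605 to 1338 CPM for endothelium, from 1372 to 3117 CPM for macrophages, from 643 to 2928 CPM for white and general fat, from 51.9 to 1247 CPM for erythroid cells, from 20.06 to 208 CPM for lymph node and from 26.3 to 75.8 CPM for Schwann cells. They ran from 4.52 to 52.9 CPM for skeletal muscle, from 1.05 to 25.8 CPM for kidney, from 1.05 to 7.53 CPM for mesothelium, from 4.29 to 7.34 CPM for adrenal gland and from 1.38 to 3.01 CPM for thymus. Of these, kidney and lymph node markers were highest in control 3, and skeletal muscle markers in Sept2C111A library 3.

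Partners and regulators of Hox proteins were examined from a further list. All 45 listed genes had a row and 40 were tested. edgeR called 0, with 3 higher and 4 lower at an unadjusted p under 0.05, a share near the 15.0% of all genes. DESeq2 called 1 higher and 1 lower, near the 3.87% of all genes. Meis1, a homeodomain partner of Hox proteins, was at 22.4, 29.8 and 23.1 CPM in controls and 36.8, 41.3 and 39.4 CPM in Sept2C111A libraries, with a log2 difference of 0.61 between groups (SE 0.15). Its adjusted p was 0.316 in edgeR and 0.0424 in DESeq2. Its groups did not overlap, which was so for 22.6% of all genes tested. Cyp26a1, an enzyme that breaks down retinoic acid, an inducer of Hox genes, was at 1.92 ± 1.60 and 0.199 ± 0.107 CPM, and Ezh2, the Polycomb methyltransferase that silences Hox clusters, at 17.5 ± 6.07 and 10.2 ± 0.548 CPM. Cdx1, Cdx2 and Cdx4, embryonic inducers of posterior Hox genes, had at most 0.211 CPM in any library. The summed level of the 9 Pbx, Meis and Pknox cofactors lay between 246 and 301 CPM in all 6 libraries.

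Genes that flank the clusters were examined next. Of 32 listed neighbours 17 had a row and 15 were tested. edgeR called 0, with 1 higher and 2 lower at an unadjusted p under 0.05 (15.0% of all genes), DESeq2 called 0, and the median log2 fold change was 0.01. Skap2, an adaptor protein of leukocytes beside the Hoxa cluster, was at 94.2 ± 17.9 and 65.1 ± 3.94 CPM, Skap1, an adaptor of T cells beside the Hoxb cluster, at 1.25 ± 0.824 and 0.292 ± 0.119 CPM, and Calcoco1, a coactivator gene near the Hoxc cluster, at 57.8 ± 17.7 and 89.8 ± 8.68 CPM. Mtx2 and Lnpk, beside the Hoxd cluster, ranged from 23.5 to 41.4 CPM and from 20.3 to 27.8 CPM over the 6 libraries, a narrower spread than any Hoxd gene tested.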

How the data were processed

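Aortic RNA was sequenced in 6 libraries, 3 per marrow group, after selection of poly(A) RNA per the labels' protocols. The authors deposited expected counts per gene, not normalised. Per the submitters' processing notes, Bowtie2, RSEM 1.3.1, DESeq2 1.4.5 and the build mm10 were used. No source used here gives the annotation, read filters or strand setting. RSEM shares out reads with several possible genes, and 10 of the 37 Hox rows held fractional values, so paralogues with alike sequence may exchange reads. One file of the Sept2C111A group carried another library number in its heading, and GEO's record of its sample was followed. Replicates of a group were separate libraries by their counts (chi-square per degree of freedom, 50.2 to 237).

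Hox rows, and all lists, were chosen with earlier results of these data known. CPM used all 18749 rows of a library. Counts were rounded and tested in R 4.3.3 with edgeR 4.0.16: filterByExpr (minimum count 10), TMM, the quasi-likelihood test (two-sided) on group alone and Benjamini-Hochberg adjustment over 14466 genes, called at adjusted p under 0.05. DESeq2 1.42.0 and limma 3.58.1 (voom with quality weights) were alternatives, and the edgeR step was tested on simulated data. Each SE is the size of the log2 change over the square root of F. Per-library CPM is given for the 2 rows of highest mean CPM per cluster, the highest row per class, and rows with a mean count of at least 10 whose groups did not overlap or whose unadjusted p was under 0.05. From each other list the 3 genes of smallest p are given. Further Hox genes and the regional and tissue genes beyond these were picked after their values were seen. One Hox gene is counted in the sums and fits and is not reported here by itself. Coordinates and exon lengths come from GENCODE vM21. Replicate numbers were not treated as pairs in the main fit. Whether they pair the samples cannot be decided from 3 libraries a group.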

Additional observations from a re-analysis of the deposited data

How the results depend on the processing

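No Hox gene was called with all libraries by the edgeR settings run, by DESeq2 or by limma-voom, or by edgeR with any 1 library left out. The median log2 fold change of the 27 tested Hox genes, 0.26, ran from -0.036 to 1.09 when single libraries were left out, and was 0.25 with DESeq2-style size factors in edgeR 0.31 on plain library totals and 0.74 with voom. Leaving out control 3 gave 1.09. With posterior taken from paralogue 10, the posterior share was 1.24% in controls and 3.21% in Sept2C111A libraries, and the log2 ratio of posterior to central reads -5.45 and -4.21 in place of -3.17 and -2.73, since paralogue 9 holds most posterior reads. The posterior share ran from 4.42% to 7.52% in controls and from 6.67% to 10.5% in Sept2C111A libraries with 1 library left out.

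Log2 fold changes near 0 changed sign. Voom gave 0.64 for Hoxb9, 0.50 for Hoxc8 and 0.69 for Hoxd8. Leaving out controls 1 and 3 together, chosen after seeing the data, gave -0.033 for Hoxa3, 0.38 for Hoxb9, 0.57 for Hoxc8 and 0.89 for Hoxd8, with 1 control assumed to vary like the other group. With single libraries left out, values ran from -0.036 to 0.27 for Hoxb3, -0.50 to 1.02 for Hoxb9, -0.40 to 1.25 for Hoxc6, -0.58 to 0.82 for Hoxc8, -0.0083 to 1.09 for Hoxd4 and -0.54 to 1.00 for Hoxd8. The cause was not tested.

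With the replicate number as a block, 0 Hox genes were called, the Hox median was 0.38, and Hoxb9, Hoxc8 and Hoxd8 were at 0.36, 0.078 and 0.13. Same-numbered libraries correlated at 0.01, 0.15 and -0.17 in their deviations from group means, and not every library correlated best with its own number.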
